A study of Mus musculus with 9 samples.

Results

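The nuclear genes of the mitochondrial respiratory chain were followed across 9 microarrays of the mouse lateral nasal gland, a secretory gland of the nose. Members were the probe sets whose single gene symbol names a subunit of complexes I to V, a complex I assembly factor, cytochrome c or cytochrome c1. The rule used symbols only and no measured value. It found 160 probe sets of 86 genes among the 22626 probe sets that are not controls. A further 8 probe sets carried a second symbol and were left out, among them those of Ndufb4, Ndufa11 and Ndufs6.

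The study compared wild-type 129/Sv males (2 arrays), wild-type B6 males (C57BL/6, 4 arrays) and Cyp2g1-null males on a mixed 129/Sv and C57BL/6 background (3 arrays). The gene deleted in the null line encodes a nasal cytochrome P450. All mice were aged 2 to 3 months and untreated as far as the labels say, and each array held RNA from the pooled glands of 10 mice. The null line has a mixed background, so effects of the deletion and of strain background cannot be told apart in it. Because glands were pooled, the p-values describe the spread between pools and not between animals.

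The respiratory chain passes electrons from NADH (complex I) and succinate (complex II) through ubiquinone to complex III, by way of cytochrome c to complex IV, and on to oxygen. Complexes I, III and IV pump protons across the inner mitochondrial membrane, and complex V, the ATP synthase, uses the gradient to make ATP. Salt- and fluid-transporting glands draw much of the ATP for their ion pumps from this pathway. Most subunits are encoded in the nucleus, and the few mitochondrially encoded subunits do not meet the member rule.

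The deposited values are MAS5 signals, the summarised brightness of a probe set on a linear scale. They were analysed as log2(signal + 16), on which a difference of 1 is a doubling for all but dim probe sets. Array medians ran from 518.55 to 550.05, and Pearson correlations of arrays over their probe sets from 0.931 to 0.972. Obp1a, an odorant-binding protein made by nasal glands, had signals of 112206 to 150146, and the water channel Aqp5 of 22669 to 28080, and all 7 gland marker probe sets passed the filter described below, so markers of the labelled tissue were present on every array. Their level was not the same in the groups: summed gland markers ran from 348939 to 364484 in 129/Sv, from 282406 to 499100 in B6 and from 499499 to 608957 in null arrays. In null against B6, 1 of the 7 was called higher, the secreted carbonic anhydrase Car6, and 1 lower, the lipocalin Lcn3. Of all tested probe sets, 1.11% were called higher and 1.07% lower there. In null against 129/Sv the secretoglobins Scgb1b27 and Scgb2b27 were called higher, beside 1.41% of all tested probe sets. B6 arrays 1 and 2 stood apart at Mup5, a major urinary protein, with 26292 and 29518 against 113839 to 159511 on the other arrays. The targeted gene, Cyp2g1, had a signal of 55.7 to 201.1 on the null arrays, of 748.2 to 5916.8 on B6 arrays and of 207.5 and 981.2 on 129/Sv arrays. It was called lower against B6 (log2 difference -4.07, limma adjusted p = 0.00268) but not against 129/Sv (-1.81, adjusted p = 0.325). No source used here says whether its probes match the deleted exons. Summed markers of olfactory neurons, cells of the nearby mucosa (5 of 12 probe sets tested), ran from 2184 to 3453 in 129/Sv, from 3148 to 12828 in B6 and from 2692 to 8443 in null arrays. Skeletal muscle and adipocyte markers were dim: 1 of 16 muscle and 1 of 9 adipocyte probe sets passed the filter.

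As a group, the respiratory chain genes differed little between the 3 groups. A probe set was tested when its signal exceeded the array median on at least 2 arrays, which 144 of the 160 members (82 genes) and 12575 probe sets in all did. Of those 144, 136 exceeded the median on every array, and 1 did so in a single group only. The median member difference was -0.000761 for null against B6, -0.0109 for null against 129/Sv and -0.0170 for B6 against 129/Sv. Over all tested probe sets these medians were 0.0164, 0.0033 and -0.0130. The mean deviation of the members on an array from their overall mean lay between -0.033 (B6 array 2) and 0.047 (B6 array 1), a span of 0.0804.

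Few members passed the test, which was limma with Benjamini-Hochberg adjustment over all 12575 probe sets and a threshold of 0.05. In null against B6, 2 of 144 members were called, 1 higher and 1 lower (1.39%). Of all tested probe sets 2.18% were called, 1.11% higher and 1.07% lower. In null against 129/Sv, 2 members were called (1.39%), both higher, beside 2.04% of all probe sets, 1.41% higher and 0.628% lower. In B6 against 129/Sv, 6 members were called (4.17%), 4 higher and 2 lower, beside 5.19% of all, 2.92% higher and 2.27% lower. The members' shares are near the background in all 3 comparisons. The called members were 5 genes: Ndufs5, Ndufc2, Ndufa12 and Ndufb5 of complex I and Cox6c of complex IV.

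The precision was enough to bound most of the other members. The 95% interval of the difference lay within 1.5-fold in either direction for 129 of 144 members (89.6%) in null against B6, for 121 (84%) in null against 129/Sv and for 122 (84.7%) in B6 against 129/Sv. The same held for 58.7%, 47.4% and 47.7% of all tested probe sets. Member signals are bright, with a median mean signal of 10062 against 1479 for all tested, and bright probe sets vary less. Among probe sets with a mean above 12 on the log2 scale, the median within-group SD was 0.105 for 118 members and 0.129 for all 2490. In that range 1.69%, 1.69% and 5.08% of members were called in the 3 comparisons, beside 3.13%, 3.17% and 7.03% of all.

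**Figure D1:**
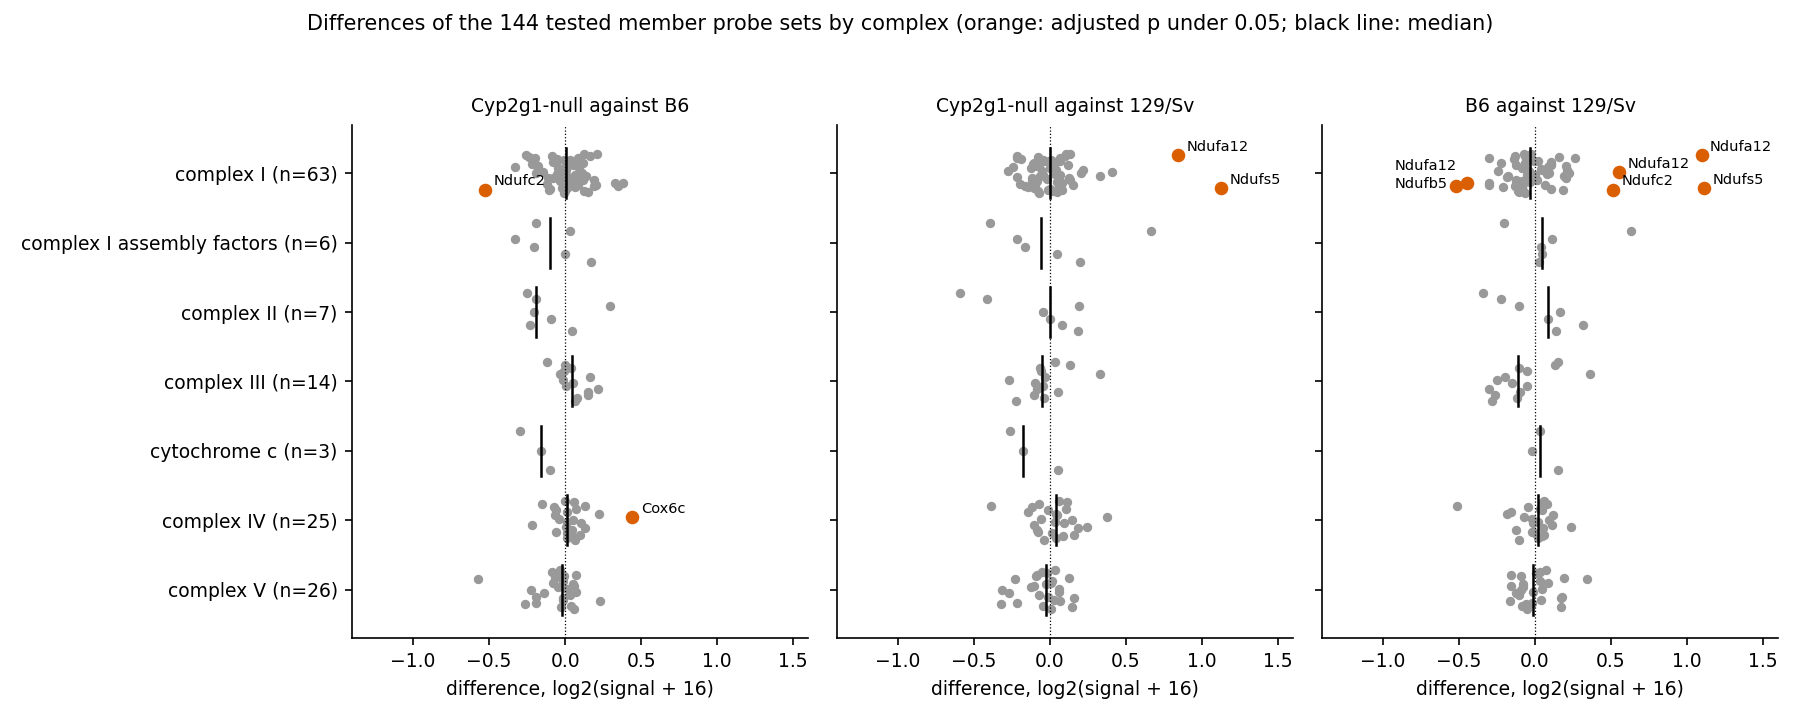
Difference of each of the 144 tested member probe sets in the 3 comparisons, on the log2(signal + 16) scale, by complex (x axis, difference; rows, complexes with their number of probe sets; orange, adjusted p under 0.05; black line, the complex's median). The medians of the larger complexes I, IV and V lie within 0.04 of 0, those of complex II and cytochrome c reach -0.19 and -0.18, and the called probe sets are in complex I and, for Cox6c, complex IV.

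Complex I, the NADH dehydrogenase, had 63 tested probe sets of its 67. Its median difference was 0.0054 in null against B6, 0.0029 in null against 129/Sv and -0.03 in B6 against 129/Sv. Between the strains 6 of its probe sets were called, 4 higher and 2 lower in B6. These 6 belong to 4 genes on 4 chromosomes, all encoding accessory subunits, which are not part of the electron path itself. The null arrays lay in the range of B6 at Ndufs5, overlapped 129/Sv at Ndufc2, and had means between those of the strains at the tested probe sets of Ndufa12 and Ndufb5.

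Ndufs5 (chromosome 4), an accessory subunit on the intermembrane side of complex I, was 2.16-fold lower in 129/Sv than in B6. Its probe set 1416494_at had signals of 4469 and 4444 on the 129/Sv arrays, of 10647, 9875, 8604 and 9570 in B6, and of 9661, 10014 and 9562 in null arrays. Both 129/Sv arrays lay below every other array, and the null signals fell inside the B6 range. The group means were 4456 ± 18.2 (SD, n = 2), 9674 ± 845 (SD, n = 4) and 9746 ± 238 (SD, n = 3). B6 exceeded 129/Sv by 1.11 (log2, SE 0.102, adjusted p = 1.08e-05) and the null arrays exceeded it by 1.13 (SE 0.107, adjusted p = 3.64e-05). Null against B6 gave 0.01 (95% interval -0.18 to 0.21, adjusted p = 0.967). These calls held in all 21 other settings and arrays left out.

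A second probe set, 1416495_s_at, is annotated to both Ndufs5 and the pseudogene Ndufs5-ps and gave another picture. Its signals were 5019 and 4951 in 129/Sv, 5014 to 5958 in B6 and 5519 to 6059 in null arrays. B6 against 129/Sv was 0.13 there (adjusted p = 0.588). The log2 ratio of the probe sets differed between the strains by 0.98, which is given as a description because the pair was chosen for the call at 1 of its probe sets. The 129/Sv difference therefore rests on 1 of these probe sets, and whether a sequence difference under its probes takes part was not tested.

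The promoter of Ndufs5 is shown because this gene had the largest difference of any member. It is chr4:123718137-123718436 on the minus strand of GRCm38.p6, from 250 bases before to 50 after the RefSeq start, as are the windows of the genes below. The capitals mark a match to the estrogen-related receptor half-site CAAGGTCA, here as its reverse complement, 228 bases before the start.
Ndufs5: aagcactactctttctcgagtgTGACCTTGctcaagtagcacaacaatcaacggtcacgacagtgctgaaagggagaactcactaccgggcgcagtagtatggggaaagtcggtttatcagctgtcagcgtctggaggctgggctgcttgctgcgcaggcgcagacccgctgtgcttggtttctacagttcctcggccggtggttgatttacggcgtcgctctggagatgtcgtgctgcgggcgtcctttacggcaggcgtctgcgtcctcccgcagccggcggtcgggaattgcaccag
That motif was in 5.26% of the 76 member promoters and in 1.56% of all 32851 promoters of this length, on either strand.

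Ndufc2 (chromosome 7), a membrane-arm accessory subunit, was higher in B6 than in either other group. Its probe set 1416366_at had signals of 8148 and 8486 on the 129/Sv arrays, of 11410, 11463, 11789 and 12852 in B6, and of 8367, 8497 and 7835 in null arrays. Every B6 array lay above all 5 others, and the null and 129/Sv signals overlapped. The null arrays were lower than B6 by 0.53 (log2 difference -0.53, SE 0.0824, adjusted p = 0.0032), from 11879 ± 670 (SD, n = 4) to 8233 ± 351 (SD, n = 3). B6 exceeded 129/Sv by 0.51 (adjusted p = 0.00448), a call lost without 129/Sv array 1 (adjusted p = 0.0606). Null against 129/Sv was -0.02 (95% interval -0.23 to 0.20, adjusted p = 0.981).

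The other Ndufc2 probe set, 1455036_s_at, was ordered alike but by less. Its signals were 15966 and 16200 in 129/Sv, 16596 to 19039 in B6 and 14939 to 15469 in null arrays, so the B6 arrays were again the highest. Null against B6 was -0.24 (adjusted p = 0.148) and B6 against 129/Sv 0.16 (adjusted p = 0.374). Ndufc2 lies on the chromosome that also carries Cyp2g1. The distance between the genes was not examined, and a part of their shared chromosome in the difference was not tested. Summed stromal and endothelial markers were also highest in B6 (52009 to 63458) and lower in 129/Sv (44057 to 44240) and null arrays (43481 to 49772). Of the 7 tested stromal probe sets, 2 were called lower in null against B6, Col1a1 and Col3a1, which encode fibrillar collagens. Of all tested probe sets, 1.07% were called lower in that comparison. The part of stroma in the Ndufc2 difference was not tested.

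The promoter of Ndufc2, at chr7:97399753-97400052 on the plus strand, is shown because it holds a pair of simple repeats, in capitals. An ACAT repeat of 36 bases begins 166 bases before the start and an AC repeat of 28 bases begins 76 bases before it. The reference sequence says nothing of their length in 129/Sv.
Ndufc2: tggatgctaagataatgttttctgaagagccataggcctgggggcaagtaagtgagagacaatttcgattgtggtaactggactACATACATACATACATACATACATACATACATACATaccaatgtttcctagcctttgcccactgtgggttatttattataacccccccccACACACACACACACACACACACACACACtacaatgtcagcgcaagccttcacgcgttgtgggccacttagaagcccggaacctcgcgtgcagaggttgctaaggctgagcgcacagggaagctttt

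Ndufa12 (chromosome 10), an accessory subunit of the peripheral arm, gave opposite differences at different probe sets. At 1455806_x_at the signals were 6237 and 6277 on the 129/Sv arrays, 13194, 12916, 13382 and 14134 in B6, and 13201, 9780 and 10977 in null arrays. Both 129/Sv arrays were the lowest, and the null arrays reached from well below B6 into its range. B6 exceeded 129/Sv by 1.10 (SE 0.113, adjusted p = 3.26e-05) and null exceeded 129/Sv by 0.84 (SE 0.119, adjusted p = 0.00106). A second probe set, 1433513_x_at, was likewise higher in B6 (by 0.55 over 129/Sv, adjusted p = 0.0223), at 10282 ± 1007 (SD, n = 4) against 6979 ± 244 (SD, n = 2). The third tested probe set, 1418814_s_at, was lower in B6 (-0.45, adjusted p = 0.0211), with signals of 11026 and 10169 in 129/Sv, 7260 to 8791 in B6 and 9334 to 10246 in null arrays.

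The level of Ndufa12 therefore has no single order of the groups. The ratio of 1455806_x_at to 1418814_s_at differed between the strains by 1.54 on the log2 scale, again a description. The calls of 1433513_x_at and 1418814_s_at were lost without 129/Sv array 1 (adjusted p = 0.169 and 0.198) or array 2 (0.108 and 0.0768). The first was also lost without B6 array 4 (0.0522) and the second without B6 array 3 (0.0514). With the replicate number as a block they were 0.0676 and 0.0834. The remaining probe set, 1425919_at, had signals of 110.3 to 365.5, below every array median, and was not tested. Probe sets ending in _x_at or _s_at can match several transcripts.

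Ndufb5 (chromosome 3), a membrane-arm accessory subunit, was lower in B6. Its probe set 1417102_a_at had signals of 7427 and 7330 on the 129/Sv arrays, of 5596, 4859, 5155 and 5026 in B6, and of 6739, 6633 and 6362 in null arrays. The groups did not overlap, with the null arrays between the strains. B6 against 129/Sv was -0.52 (SE 0.0988, adjusted p = 0.00615), which was lost without 129/Sv array 1 (adjusted p = 0.067) or 2 (0.0581). Null against B6 was 0.35 (adjusted p = 0.0538) and was called without B6 array 1 (0.39, adjusted p = 0.0198). Without that array the called share of all probe sets was 4.91%, in place of 2.18%. The other probe set, 1448589_at, had the same order of group means, 13058 ± 574 (SD, n = 2), 11186 ± 654 (SD, n = 4) and 12126 ± 378 (SD, n = 3) in 129/Sv, B6 and null arrays, with a B6 against 129/Sv difference of -0.22 (adjusted p = 0.212).

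**Figure D2:**
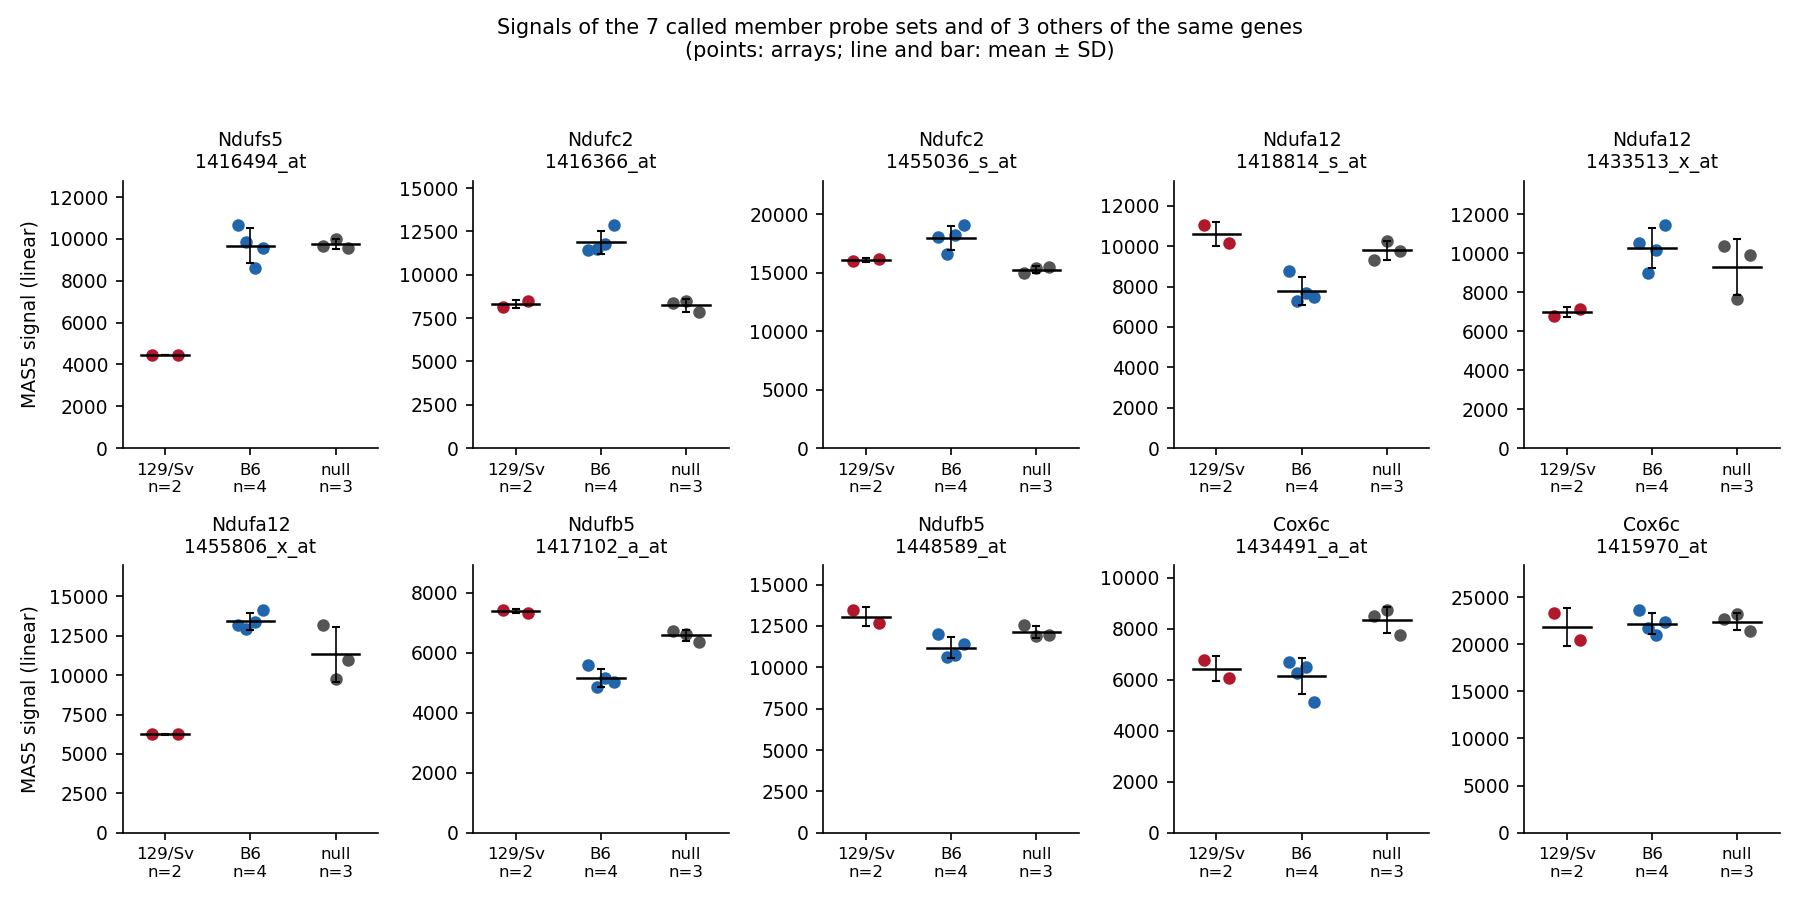
MAS5 signal per array (linear axis from 0; points, arrays; line and bar, mean ± SD) in 129/Sv (n = 2), B6 (n = 4) and Cyp2g1-null (n = 3) glands, for the 7 called member probe sets and 3 others of the same genes. The drawn Ndufs5 probe set is low in 129/Sv alone, Ndufc2 is high in B6 alone, and the Ndufa12 probe sets run in opposite directions. The other Ndufs5 probe set, 1416495_s_at, is also annotated to a pseudogene and is not drawn. Its B6 against 129/Sv difference was 0.13.

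The core catalytic subunits of complex I did not pass in any comparison. Ndufv1, which carries the flavin that accepts electrons from NADH, had 3 tested probe sets with differences between -0.10 and 0.21 over the 3 comparisons. Ndufs1, the largest iron-sulfur subunit, had signals of 3474 and 3784 in 129/Sv, 2912 to 3327 in B6 and 2994 to 3268 in null arrays. Both 129/Sv arrays were the highest, and B6 against 129/Sv was -0.18 (95% interval -0.43 to 0.06, adjusted p = 0.452). The brightest complex I probe set, of Ndufa13, a subunit also known as GRIM-19, ran from 24793 to 31539, both ends set by B6 arrays. Ndufb6, a membrane-arm subunit, was farthest below the median in null against 129/Sv (-0.28, adjusted p = 0.305). Ndufs4, an accessory subunit known from a mouse model of Leigh syndrome, was farthest above it in null against B6 at a dim probe set, 1418117_at (0.38, adjusted p = 0.525, signals 354.9 to 738).

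The complex I assembly factors, which help to build the complex without being part of it, had 6 tested probe sets of 5 genes. None was called by limma, and 0 of the 6 had an unadjusted p under 0.05 in any comparison. They were dimmer than the subunits, with a median mean signal of 1288, and their median within-group SD of 0.241 was above the 0.106 of complex I. The brightest was Ndufaf3, with signals of 1929 to 2755. Ndufaf5 was farthest above the median against 129/Sv (0.66 in null, adjusted p = 0.578; 0.63 in B6, adjusted p = 0.435), at signals of 208.7 to 575.3. Ndufaf4 was farthest below and is described with cytochrome c.

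Complex II, succinate dehydrogenase, had 7 tested probe sets of its 4 genes and no call. Its median difference was -0.19 in null against B6, where 5 of the 7 were below 0, the lowest median of any complex in that comparison. It was -0.0031 in null against 129/Sv and 0.09 in B6 against 129/Sv. At unadjusted p under 0.05 it had 1, 1 and 2 probe sets in null against B6, null against 129/Sv and B6 against 129/Sv. The counts over all 12575 tested probe sets were 1812, 1509 and 2187. Sdha, the flavoprotein subunit that oxidises succinate, was farthest above the median in B6 against 129/Sv at 1426688_at (0.32, adjusted p = 0.139). Its signals were 9839 and 10385 in 129/Sv, 11054 to 14331 in B6 and 10199 to 11622 in null arrays, so B6 lay above 129/Sv. Its other probe set, 1426689_s_at, gave 0.09 (adjusted p = 0.767).

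Sdhc, a membrane anchor of complex II, came nearest to the threshold among member probe sets called in no comparison. At 1448630_a_at its signals were 4826 and 5641 on the 129/Sv arrays, 3381, 4101, 4771 and 4309 in B6, and 3701, 3291 and 3396 in null arrays. Both 129/Sv arrays were the highest and null against 129/Sv was -0.59 (SE 0.145, adjusted p = 0.0545). The difference was called with equal array medians (-0.65, adjusted p = 0.0388), a filter at the 75th percentile (0.0416) and 1 probe set per gene (0.0493). It was also called with only the 2 groups fitted (0.0217), without B6 array 1 (0.0156) and without B6 arrays 1 and 2 (0.0131). Without B6 array 1, 2.62% of all probe sets were called in this comparison, in place of 2.04%. The other Sdhc probe set, 1435986_x_at, gave 0.19 in the same comparison (adjusted p = 0.852) and spread widely within groups, from 1331 to 2338 in B6 alone.

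Complex III, which hands electrons from ubiquinol to cytochrome c, had 14 tested probe sets and no call. It had 1, 0 and 3 at unadjusted p under 0.05, beside 1812, 1509 and 2187 of all 12575 tested. Its median difference was 0.05 in null against B6, -0.05 in null against 129/Sv and -0.11 in B6 against 129/Sv. Uqcrc1, a core protein of the matrix side, was farthest below the median in B6 against 129/Sv (-0.30, adjusted p = 0.148). A dim probe set of Uqcrq, 1437134_at, which encodes a small subunit, was farthest above it (0.36, adjusted p = 0.672, signals 256.3 to 618.9). Signals of Uqcrc1 were 6738 and 6121 in 129/Sv, 4913 to 5400 in B6 and 5474 to 6491 in null arrays. For Uqcrc1, B6 therefore lay below both other groups. Uqcrfs1, the Rieske iron-sulfur protein, ran from 12656 to 14849, and Cyc1, cytochrome c1, from 11726 to 13323. Their differences stayed between -0.12 and 0.08. Uqcrb 1455997_a_at was the brightest member probe set, at 67316 to 79584, although signals of different probe sets do not rank abundance. B6 against 129/Sv was 0.15 for it (adjusted p = 0.329), and all 4 B6 arrays were above the others. The other Uqcrb probe set, added after its values were seen, had the opposite order of the strains, with 9409 and 11024 in 129/Sv, 7656 to 8769 in B6 and 8273 to 9682 in null arrays (B6 against 129/Sv -0.28, adjusted p = 0.183).

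Cytochrome c, the mobile carrier between complexes III and IV, is encoded by Cycs (chromosome 6). Its 3 probe sets were not called, with 0 at unadjusted p under 0.05, yet arrays of the same group differed from each other at all of them. At 1422484_at the signals were 2879 and 4415 on the 129/Sv arrays, 2772, 4199, 3381 and 3914 in B6, and 3082, 3412 and 2977 in null arrays. At 1456071_a_at they were 14753 and 19307 on the 129/Sv arrays, 13080, 17538, 18383 and 21232 in B6, and 14766, 14855 and 12723 in null arrays. 129/Sv array 1 and B6 array 1 were low at both probe sets and the null arrays were close together. Null against B6 was -0.30 at 1456071_a_at (adjusted p = 0.366) and was called when B6 array 1 was left out (-0.43, adjusted p = 0.0469). That fit called 4.91% of all probe sets, in place of 2.18%.

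Ndufaf4 (chromosome 4), a complex I assembly factor, largely followed the same arrays in 129/Sv and B6. At 1427997_at its signals were 1856 and 2478 on the 129/Sv arrays, 1720, 2654, 1994 and 3149 in B6, and 1955, 1658 and 1921 in null arrays. At 1435333_at they were 1197 and 1603, then 882.1, 1539, 1099 and 1396, then 958.1, 1123 and 1075. Once group means were removed, the 6 pairs of a Cycs and an Ndufaf4 probe set correlated at r = 0.731 to 0.937 over the 9 arrays. The deviations of the 129/Sv arrays are then equal and opposite by construction, so fewer than 9 points are independent. On the null arrays the order was mixed. Ndufaf4 1427997_at deviated by 0.087, -0.149 and 0.062, the reverse order of Cycs 1422484_at (-0.032, 0.114 and -0.082). Ndufaf4 1435333_at (-0.130, 0.096 and 0.034) was, like Cycs 1422483_at (-0.067, 0.026 and 0.041), lowest on null array 1. These genes were set side by side after their values were seen, and the points of a pair share arrays, so the correlations are a description. By comparison, the mean deviation of complex I subunits from their mean over all 9 arrays was 0.07 on B6 array 1 and -0.05 on B6 array 2. That is the opposite order to that of Cycs and Ndufaf4 on these arrays. On B6 arrays 3 and 4 it was -0.04 and 0.03, the same order as that of Cycs and Ndufaf4.

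**Figure D3:**
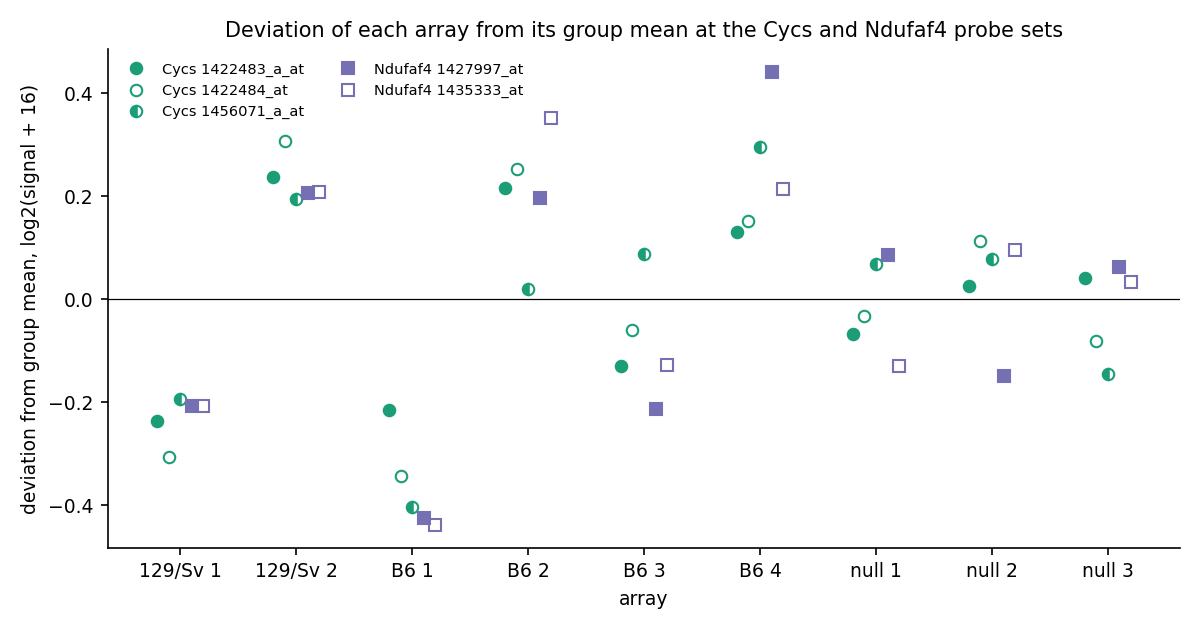
Deviation of each array from its group mean on the log2(signal + 16) scale (y axis) at 3 Cycs and 2 Ndufaf4 probe sets, for the 9 arrays (x axis; points, single arrays). All 5 probe sets are below their group mean on 129/Sv array 1 and B6 array 1. They are above it on 129/Sv array 2, B6 array 2 and B6 array 4, though Cycs 1456071_a_at by only 0.02 on B6 array 2. On no null array do all 5 lie on the same side of it. The 129/Sv deviations are equal and opposite by construction.

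The promoters of Cycs and Ndufaf4 are shown because both hold the core GCGCATGC of the site of nuclear respiratory factor 1 (NRF1), a factor known to bind promoters of respiratory genes. The windows are chr6:50566520-50566819 on the minus strand and chr4:24897833-24898132 on the plus strand. Capitals mark matches on either strand. In Cycs they are an NRF1 core 60 bases before the start and a cyclic AMP response element, TGACGTCA, 169 bases before it. In Ndufaf4 an overlapping pair of NRF1 cores begins 113 and 111 bases before the start, and another begins 1 base after it.
Cycs: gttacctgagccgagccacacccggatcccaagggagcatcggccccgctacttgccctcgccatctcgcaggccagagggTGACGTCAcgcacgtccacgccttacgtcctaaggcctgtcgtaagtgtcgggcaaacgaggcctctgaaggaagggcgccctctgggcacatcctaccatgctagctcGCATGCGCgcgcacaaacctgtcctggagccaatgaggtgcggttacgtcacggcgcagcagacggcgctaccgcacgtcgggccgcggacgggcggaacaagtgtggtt
Ndufaf4: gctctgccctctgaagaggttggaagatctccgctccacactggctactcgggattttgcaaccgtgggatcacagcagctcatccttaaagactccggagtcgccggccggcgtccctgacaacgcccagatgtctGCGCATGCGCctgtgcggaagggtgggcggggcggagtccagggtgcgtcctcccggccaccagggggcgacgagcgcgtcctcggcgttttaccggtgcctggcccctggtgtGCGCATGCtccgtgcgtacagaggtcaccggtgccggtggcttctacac

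Of the 86 member genes, 71 had a promoter in the RefSeq table, 76 windows in all. The NRF1 core was in 12 of them (15.8%), beside 2.71% of all 32851 windows. The ETS core CCGGAAG, bound by GABP, was in 18 (23.7%, beside 8.86%), the YY1 core ATGGCGG in 11 (14.5%, beside 4.05%) and the cyclic AMP response element in 4 (5.26%, beside 1.79%). Both strands were searched. A match describes letters in the window and shows no binding. Of the called genes, Ndufs5 held only the half-site above, Ndufb5 held the YY1 core, and Ndufc2 held none of the 5 motifs. No match was found for Ndufa12 or Cox6c, which can also mean that a gene had no window.

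Complex IV, cytochrome c oxidase, had 25 tested probe sets of its 33. Its median difference was 0.01 in null against B6, 0.04 in null against 129/Sv and 0.02 in B6 against 129/Sv. Cox6c (chromosome 15), a small subunit of the complex, supplied its only call. At 1434491_a_at the signals were 6791 and 6092 on the 129/Sv arrays, 6712, 6275, 6490 and 5145 in B6, and 8511, 8742 and 7756 in null arrays. All 3 null arrays lay above every wild-type array. Null exceeded B6 by 0.44 (SE 0.106, adjusted p = 0.0467), and null against 129/Sv was 0.37 (adjusted p = 0.199).

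The Cox6c call was fragile. It was lost in 8 of the 9 fits that left out 1 array, where adjusted p reached 0.194 without null array 2, and held only without B6 array 1 (0.0215). It was also lost with the replicate number as a block (0.114) and without a trend in eBayes (0.147). The other probe set, 1415970_at, was bright and level, at 20443 and 23270 in 129/Sv, 20971 to 23628 in B6 and 21417 to 23158 in null arrays, with a difference of 0.01 (95% interval -0.16 to 0.19). The ratio of the probe sets differed between null and B6 by 0.43 on the log2 scale, as a description. Markers of ciliated respiratory epithelium were also highest in null arrays, with summed signals of 29935 to 33908, against 20750 to 27412 in B6 and 23462 to 23598 in 129/Sv. Of 7 such probe sets, 4 were called higher in null against B6, among them Dnah5 and Tppp3, beside 1.11% of all tested probe sets. Summed gland markers were likewise highest in null arrays, at 499499 to 608957 against at most 499100 in B6 and 364484 in 129/Sv. The part of either in the Cox6c difference was not tested.

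Several complex IV subunits exist as isoforms known from particular tissues. The lung isoform Cox4i2 had signals of 26.5 to 238.9, the muscle isoform Cox6a2 of 58.1 to 349 and the testis isoform Cox6b2 of 109.4 to 477.3, all below every array median, and they were not tested. Their common counterparts were bright: Cox4i1 ran from 24819 to 31232, Cox6a1 1417417_a_at from 22657 to 30444 and Cox6b1 1436757_a_at from 17171 to 23135. Such levels come from different probe sets and are no ratio of isoforms.

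Cox7a1 and Cox8b, isoforms of muscle and brown fat, and Cox8c, known from testis, passed the filter, and none was called. Cox7a1 lay near the array medians, at 373.2 to 795.3, and Cox8b at 262 to 642.7. Cox8b was farthest below the complex IV median against 129/Sv, with -0.51 in B6 (adjusted p = 0.512) and -0.39 in null arrays (adjusted p = 0.782). Cox8c had signals of 922.5 to 1367, above the median on all 9 arrays. The common Cox7a2 1416970_a_at, the brightest of complex IV, ran from 39199 to 44197, and Cox8a 1416112_at from 10001 to 11797. Ndufa4, once counted in complex I and now in complex IV, ran from 9803 to 10992, with differences of 0.01 to 0.03.

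**Figure D4:**
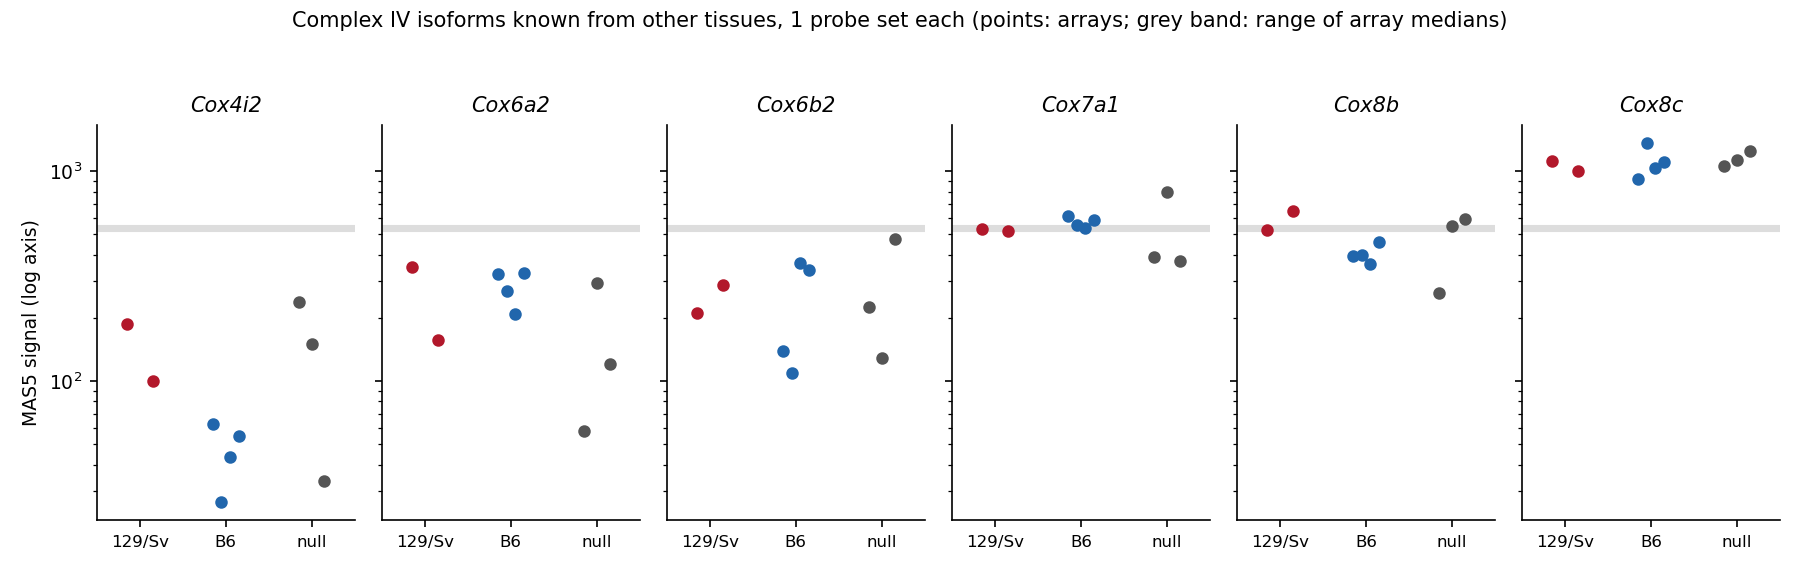
MAS5 signal (y axis, log scale) of 6 complex IV isoforms known from other tissues, 1 probe set each, in 129/Sv, B6 and Cyp2g1-null arrays (points, arrays; grey band, range of the array medians). Cox4i2, Cox6a2 and Cox6b2 lie below the medians, Cox7a1 and Cox8b around them, and Cox8c above them.

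Cox7a2l encodes a factor that links complexes III and IV into supercomplexes and is known to differ between mouse strains, B6 among them, by a short deletion in the protein. Its signals overlapped between the groups. At 1421772_a_at the signals were 16257 and 12215 in 129/Sv, 12251 to 16647 in B6 and 14085 to 16497 in null arrays. B6 against 129/Sv was -0.01, 0.09 and -0.02 at its 3 probe sets, and the widest of the 95% intervals ran from -0.22 to 0.40. These probe sets do not report the protein or the deletion. Cox6a1 1417418_s_at was farthest above the complex IV median in B6 against 129/Sv (0.24, adjusted p = 0.174), with both 129/Sv arrays, at 13692 and 13908, below all others (15226 to 17316).

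Complex V, the ATP synthase, had 26 tested probe sets of its 28 and no call. It had 3, 4 and 0 probe sets at unadjusted p under 0.05, beside 1812, 1509 and 2187 of all 12575 tested. Its medians were -0.02, -0.02 and -0.02. Atp5a1 and Atp5b, the alpha and beta subunits that form the catalytic head, were level. Atp5b 1416829_at ran from 23840 to 34621 with overlapping groups, and Atp5a1 1423111_at from 26208 to 33075. Their differences were between -0.16 and 0.17 over all tested probe sets. Atp5g3, which encodes the c subunit of the rotor ring, had the brightest probe set of the complex, at 29900 to 34601.

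Atp5j, the coupling factor 6 of the stalk, was farthest below the complex V median in null against 129/Sv (-0.32, SE 0.116, adjusted p = 0.231). Its signals were 22285 and 24281 on the 129/Sv arrays, 20298, 20229, 24309 and 24901 in B6, and 17003, 19943 and 18937 in null arrays, so all null arrays were the lowest. Null against B6 was -0.26 (adjusted p = 0.216). It was called only when B6 arrays 1 and 2 were both left out (-0.40, adjusted p = 0.0291), a fit that called 4.41% of all probe sets. Atp5o, another stalk subunit, was farthest above the median in null against B6 (0.23, adjusted p = 0.353), and a dim probe set of Atp5c1, 1438809_at, was farthest below it (-0.57, adjusted p = 0.397, signals 288.8 to 588.7).

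The 16 members that were not tested include every probe set of 4 genes, Cox4i2, Cox6a2, Cox6b2 and Cox7c. Cox7c encodes a common complex IV subunit, and its 2 probe sets stayed below the filter. Of the 82 tested genes, 43 had several tested probe sets, and 83 of the 160 member probe sets are of types that can match several transcripts.

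Genes around the chain were taken from 5 lists. The shares called over all tested probe sets were 2.18% in null against B6, 2.04% in null against 129/Sv and 5.19% in B6 against 129/Sv. At unadjusted p under 0.05 there were 1812, 1509 and 2187 of 12575. These are the background for the list counts below. Of 45 tested probe sets of assembly and stability factors outside the member rule, 2 were called higher in null against B6, 0 in null against 129/Sv (2 at unadjusted p under 0.05), and 2 lower in B6 against 129/Sv. They were the same pair. Timmdc1, a complex I assembly factor, had signals of 1388 and 1852 on the 129/Sv arrays, 687.7, 575.5, 538.4 and 649.9 in B6, and 1393, 1305 and 1334 in null arrays. B6 lay below all others, by -1.37 against 129/Sv (adjusted p = 0.000285), and null exceeded B6 by 1.12 (adjusted p = 0.00151). Cox18, which inserts a complex IV subunit into the membrane, had the same order, with 926.6 ± 59.8 (SD, n = 4) in B6, 1386 ± 93.8 (SD, n = 2) in 129/Sv and 1376 ± 111 (SD, n = 3) in null arrays (null against B6 0.56, adjusted p = 0.0447; B6 against 129/Sv -0.57, adjusted p = 0.0418).

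Among 33 tested probe sets of the tricarboxylic acid cycle and pyruvate dehydrogenase, 1 was called, of Pdhb, the E1 beta subunit of pyruvate dehydrogenase. Its probe set 1416090_at had signals of 7697 and 8016 in 129/Sv, 10467 to 12423 in B6 and 8018 to 8851 in null arrays. B6 was the highest, as at Ndufc2, with null against B6 at -0.45 (adjusted p = 0.0136) and B6 against 129/Sv at 0.54 (adjusted p = 0.00441). The other, dim probe set, 1448214_at, gave -0.59 and 0.23 (adjusted p = 0.464 and 0.83). In null against 129/Sv 0 of the 33 were called by limma, and 3 had an unadjusted p under 0.05. The median of the 33 in B6 against 129/Sv was -0.0975, with 10 of them positive.

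In B6 against 129/Sv, 2.92% of all tested probe sets were called higher. Of 27 tested probe sets of carriers and channels, 3 were called, all higher in B6 than in 129/Sv. They were Nnt 1416105_at (0.53, adjusted p = 0.0102), the transhydrogenase that couples the proton gradient to NADPH, and both probe sets of the dicarboxylate carrier Slc25a10 (0.76 and 0.72, adjusted p = 0.00976 and 0.0407). The other Nnt probe set, 1456573_x_at, was not called. The list as a whole was not higher in B6: its median difference was -0.113, with 9 of the 27 probe sets positive. Over all tested probe sets that median was -0.0130. Among other donors of electrons to ubiquinone, 1 of 9 probe sets was called, of the sulfide oxidase Sqor. Its 1420641_a_at signals were 496.9 and 418.3 in 129/Sv, 957.3 to 1268 in B6 and 1318 to 1450 in null arrays. It was higher in B6 by 1.18 (adjusted p = 0.00104) and in null arrays by 1.55 (adjusted p = 0.000299) than in 129/Sv. The other Sqor probe set, 1430998_at, was not called. In B6 against 129/Sv the median of these 9 probe sets was -0.237, with 2 of them positive.

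Regulators of mitochondrial gene expression had 28 tested probe sets and 1 call, of Ppargc1a, the coactivator PGC-1 alpha. At 1456395_at the signals were 408.1 and 264.8 on the 129/Sv arrays, 959.1, 1109, 1334 and 1008 in B6, and 805, 651.3 and 528 in null arrays. The groups did not overlap, and B6 exceeded 129/Sv by 1.69 (SE 0.248, adjusted p = 0.000911). The 4 other Ppargc1a probe sets gave 0.34 to 0.85 in that comparison, none called. The median of the 144 members differed by -0.0170 in the same comparison.

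The genes outside the member rule whose log2 signals correlated best with the members' mean over the 9 arrays were Ppdpf (r = 0.934), Hint3 (r = 0.907) and Dbndd2 (r = 0.907), out of 11459 probe sets compared. The members' mean itself spanned 0.0804 on the log2 scale, so these correlations describe small deviations on shared arrays.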

How the data were processed

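Total RNA was extracted from pooled glands, labelled with biotin and hybridised to 1-colour Affymetrix arrays, per the labels. The deposited values are signal intensities that the authors computed with MAS5, of a version the sources do not state, per the submitters' processing notes. With 2% of values trimmed at each end, array means were 1500.56 to 1500.59, so the arrays had been scaled alike. No detection calls or scan dates were used here, and the number of arrays limits the precision.

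Of 22690 probe sets, 64 controls were left out. Symbols came from the platform annotation, of which 20380 probe sets had exactly 1. Complexes were assigned by symbol. Log2(signal + 16) was fitted per probe set with limma 3.58.1 in R 4.3.3 (lmFit, eBayes with trend), with the 3 groups sharing a spread because 129/Sv had 2 arrays. P-values are two-sided with Benjamini-Hochberg adjustment over 12575 probe sets. The step was tested on simulated data. Promoters are from RefSeq.

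The members and lists were chosen with earlier results of these data known. Named were called members with all probe sets of their genes, the members farthest from their complex's median, tissue isoforms, core catalytic and brightest members, the 3 genes most like the members' mean, and called list genes. The 13 lists were 5 of pathways and 8 of cell type markers. Those of erythroid cells had 1 of 2 probe sets tested and summed signals of 138.9 to 1092 over all arrays. Macrophage markers had 6 of 7 tested. Their summed signals were 35186 to 41723 in 129/Sv, 29264 to 33074.5 in B6 and 37525 to 42704 in null arrays. Of the 6, 1 was called higher in null against B6 and 1 lower in B6 against 129/Sv, beside 1.11% and 2.27% of all tested probe sets. In B6 against 129/Sv 4 of the 6 were positive. The part of macrophages in the member differences was not tested. The alternatives changed the normalization, pseudocount, filter, unit, probe set types, spread, block and arrays.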

Additional observations from a re-analysis of the deposited data

Results flagged for a closer look

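Among the named member probe sets, 3 had a B6 array far from the other 3, by a gap whose share of the group's range exceeded Dixon's 95% critical value. Chance alone gives such a gap in about 1 of 20 groups, and 63 probe sets were looked at. The second probe set of Sdha, 1426689_s_at, was high on B6 array 3, at 4059 against 3498 to 3549 (gap 0.902 of the range). The dim Atp5a1 probe set 1420037_at, below every array median, was low on B6 array 2, at 307.9 against 373.1 to 378.2 (0.934). The dim Atp5c1 probe set 1438809_at was low on B6 array 1, at 390.7 against 558.8 to 588.7 (0.872).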

How the results depend on the processing

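No call among members changed direction under the 12 other settings or the 9 fits that left out 1 array. Of 161 named results that were not called, 5 were called under at least 1 alternative. The 2 members called in null against B6 fell to 1, Ndufc2, with equal array medians, with no filter, without the multi-transcript probe set types, with eBayes without trend, with only the 2 groups fitted, and with the replicate block. They fell to 0 with 1 probe set per gene (limma, with 8 of 82 at an unadjusted p under 0.05), since the brighter Ndufc2 and Cox6c probe sets were then used. They rose to 7 without B6 arrays 1 and 2, where all called probe sets rose to 542. Leaving out 1 array gave 1 to 5, with 5 without B6 array 1 (Cox6c, Cycs, Ndufa12, Ndufb5 and Ndufc2). In that fit all called probe sets rose to 611 (4.91%), from 274 (2.18%).

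In null against 129/Sv the 2 calls became 1 without the multi-transcript probe set types, and leaving out 1 array gave 2 to 3. The median member difference moved to -0.0711 with equal array medians, where that of all probe sets was -0.0569. In B6 against 129/Sv the 6 calls became 2 with 1 probe set per gene and 2 without the multi-transcript probe set types. Leaving out 1 array gave 2 to 6, with 2 without 129/Sv array 1 and 3 without 129/Sv array 2. The replicate block gave 1, 2 and 4 calls in the 3 comparisons. Deviations of same-numbered arrays correlated between -0.075 and 0.0963, which gave no sign that the numbers pair the arrays. With so few arrays, low values cannot show that pairing is absent. Ndufs5, 1455806_x_at of Ndufa12 and, in null against B6, Ndufc2 were called in every fit that tested them. The causes of these changes were not tested unless stated.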
